A study of Mus musculus with 13 samples.

Results

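Integrins are adhesion receptors made of an alpha chain and a beta chain, and 10 of these chains, Itgae, Itgav, Itga2, Itga4, Itgal, Itgb1, Itgb2, Itgb3, Itgb7 and Itgb8, were followed here across 3 populations of mouse splenic CD4 T cells. They were chosen by symbol as integrin chains of T cells, with earlier results of these data known. Each of the 10 was found once among the 18649 genes of the deposited table. All 10 passed the minimum level for testing, a mean of at least 10 scaled counts. PD1hi cells were CD4 T cells with high PD-1, the product of Pdcd1, and no GFP marking Foxp3 (3 libraries). Treg cells, the regulatory T cells, carried the GFP that marks Foxp3 and lacked PD-1 (5 libraries). Tconv cells, the conventional T cells, lacked both (5 libraries). The libraries came from experiments numbered 3, 5 and 6, and 4 of them were titled as a replicate within their experiment. Where a population had 2 libraries in an experiment their mean was used, so each population had 3 values. The labels do not say whether the libraries come from separate mice, so the spread behind every p-value may be technical. No strain, age or treatment of the mice was stated in the labels used here.

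An integrin reaches the cell surface only as a dimer, so the chains a cell transcribes limit the receptors it can assemble. On T cells LFA-1 (Itgal with Itgb2) binds ICAM proteins during contact with other cells and vessel walls, and the Itga4 chain joins Itgb1 to bind VCAM-1 or Itgb7 to bind MAdCAM-1 on gut vessels. Itgae, known as CD103, joins Itgb7 to bind E-cadherin on epithelium, and Itga2 with Itgb1 binds collagen. Itgav joins several beta chains, of which Itgb8 is known for releasing active TGF-beta from its latent complex.

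The chain Itgav and its partner Itgb8 were both higher in PD1hi and in Treg than in Tconv cells, so the 250 bases before their transcription starts are shown here, taken from RefSeq on GRCm38.p6 and written 5′ to 3′ on the strand of the gene. Itgav lies on the plus strand at chr2:83724147-83724396, and Itgb8 on the minus strand at chr12:119238277-119238526. Capitals mark the only matches of 6 motifs searched on both strands, a forkhead core (TAAACA) in Itgav and a CCAAT box (CCAAT) in Itgb8.

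Itgav: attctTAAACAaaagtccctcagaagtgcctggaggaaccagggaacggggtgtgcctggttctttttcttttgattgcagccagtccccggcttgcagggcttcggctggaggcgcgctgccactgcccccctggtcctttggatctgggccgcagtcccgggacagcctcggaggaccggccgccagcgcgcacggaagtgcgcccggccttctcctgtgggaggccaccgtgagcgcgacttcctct

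Itgb8: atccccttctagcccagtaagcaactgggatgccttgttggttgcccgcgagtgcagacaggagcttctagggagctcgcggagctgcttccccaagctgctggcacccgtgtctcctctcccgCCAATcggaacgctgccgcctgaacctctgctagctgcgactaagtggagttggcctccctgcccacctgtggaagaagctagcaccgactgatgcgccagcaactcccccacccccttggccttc

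The forkhead core lay 245 bases before the Itgav start and the CCAAT box 126 bases before the Itgb8 start. Over the same window of all 32851 RefSeq promoters, 12.0% held TAAACA and 33.8% held CCAAT. The other motifs were the GC box (GGGCGG, in 32.7% of promoters), the TATA box (TATAAA, 12.4%), a runt site (TGTGGT, 14.0%) and an ETS core (CCGGAA, 12.0%); no motif is contained in another. The promoters and motifs were chosen after the values were seen, 6 of the 10 chains had an entry, and a match describes letters only. The 2 promoters thus shared none of the 6 motifs.

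Every library held between 15971126 and 24216463 reads in genes. Pdcd1 averaged 37372 scaled counts in PD1hi, 1955 in Treg and 1132 in Tconv, and Foxp3 106, 15889 and 292. Pdcd1 was higher in Treg than Tconv (log2 change 0.79, adjusted p = 0.0012 by limma). Foxp3 was lower in PD1hi than Tconv (-1.50, adjusted p = 3.6e-04 by limma). Cd4, shared by all 3 sorts, averaged 40736, 17161 and 28067. A set of 8 T cell genes summed to 200210 to 207517 scaled counts in PD1hi, 133119 to 142314 in Treg and 173249 to 180973 in Tconv. Of these 8, 2 were higher in PD1hi than Tconv (Cd4 and Cd3g), 6 higher in PD1hi than Treg, Cd4 (1.24), Cd247, Cd28, Cd3g, Lck and Cd5, and 2 lower in Treg than Tconv (Cd4 and Lck). Among all genes tested, 14.2% were higher in PD1hi than Tconv, 8.16% higher in PD1hi than Treg and 5.66% lower in Treg than Tconv. Levels are scaled counts, that is reads divided by the authors' size factor of the library. Changes are log2 differences of (scaled count + 1) with their standard error, tested with limma over 14177 genes, and a change passed at a Benjamini-Hochberg adjusted p under 0.05. Library values are given in the order of experiments 3, 5 and 6, with a replicate library directly after its partner.

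PD1hi cells differed from Tconv cells in 8 of the 10 chains, 4 higher (Itgav, Itgal, Itgb1 and Itgb8) and 4 lower (Itgae, Itga2, Itgb3 and Itgb7). Among all genes tested 26.1% passed in this comparison, 14.2% higher and 11.9% lower. Against Treg cells 7 chains passed, with Itgav, Itgal and Itgb1 higher in PD1hi and Itgae, Itga2, Itgb3 and Itgb7 lower, where 16.5% of all genes passed, 8.16% higher and 8.39% lower. Treg cells differed from Tconv cells in 4 chains, with Itgae, Itgav and Itgb8 higher and Itgb3 lower, where 14.4% of all genes passed, 8.73% higher and 5.66% lower. The median size of the log2 change over the 10 chains was 1.35, 1.23 and 0.51 in the 3 comparisons, beside 0.41, 0.32 and 0.30 over all genes. The 3 values of each population did not overlap for 8, 8 and 6 chains, where 39.9%, 30.4% and 34.2% of all genes showed no overlap. The 3 comparisons share their samples. Because the chains were chosen with earlier results of these data known, the shares beside all genes are a description and no test of the set. All 19 changes that passed had the same sign in experiments 3, 5 and 6 taken alone. For each of these changes the values of the compared populations did not overlap. The same sign had to follow from that, so it is no separate check across experiments.

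**Figure D1:**
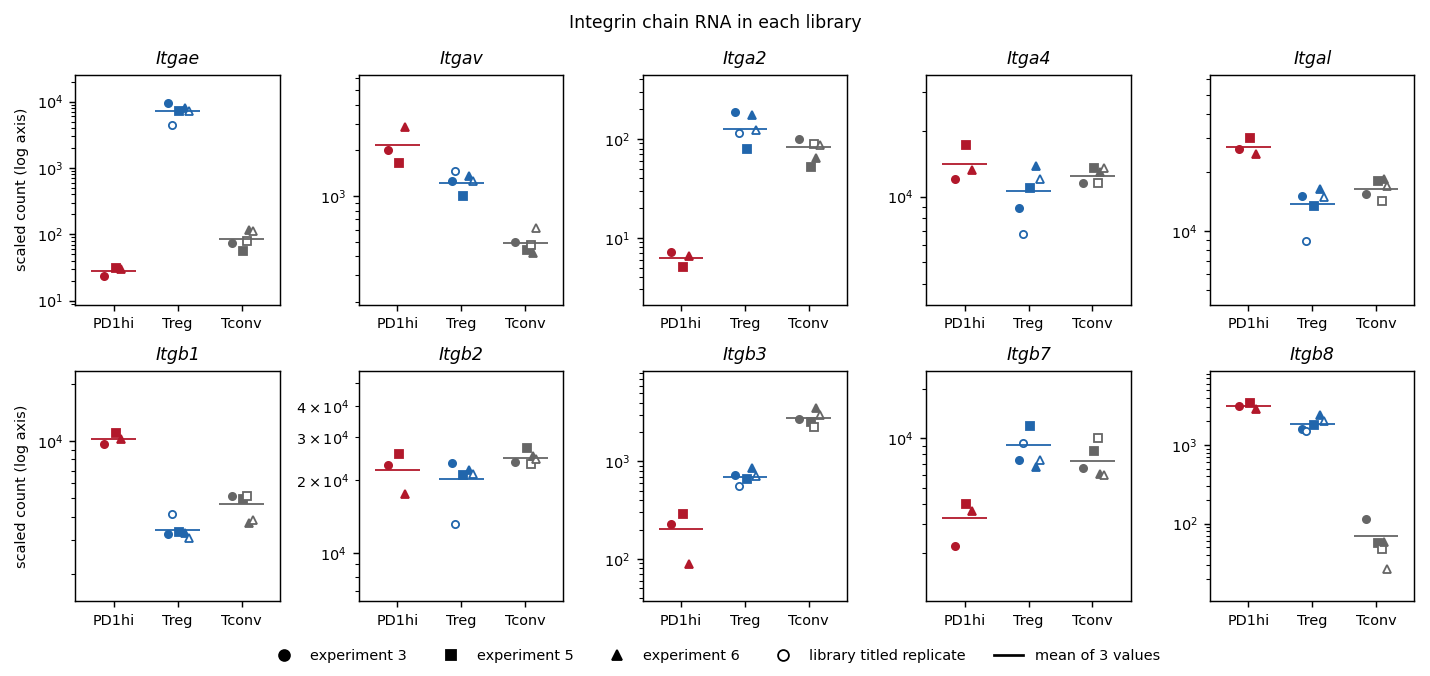
Scaled counts of the 10 integrin chains in each of the 13 libraries on log axes, by population, with a bar at the mean of the 3 values; symbols give the experiment and open symbols the libraries titled replicate. Itgae is near 7264 in Treg and at 117 or less in every PD1hi and Tconv library, and Itgb8 is at 113 or less in every Tconv library and far above that in all others.

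Among the alpha chains, Itgae (ENSMUSG00000005947) had the widest range. It stood at 23.6, 31.3 and 30.4 scaled counts in PD1hi libraries, at 9476, 4383, 7277, 8012 and 7158 in Treg libraries, and at 74.6, 56.4, 78.9, 117 and 111 in Tconv libraries. The 3 populations were separate, with PD1hi lowest, Tconv next and Treg far above, and the PD1hi libraries together held 82 Itgae reads. Treg exceeded Tconv 85.0-fold in the mean (log2 change 6.43 ± 0.23, adjusted p = 1.1e-08). PD1hi was 3.00-fold below Tconv (log2 change -1.53 ± 0.23, adjusted p = 3.7e-04) and 255-fold below Treg. In these bulk samples fewer cells that express a gene and less RNA per cell cannot be told apart. The gene most like Itgae over the 9 values was Foxp3, the transcription factor of Treg cells (Pearson r = 0.995), whose mean was 106 ± 33.4 in PD1hi, 15889 ± 513 in Treg and 292 ± 35.8 in Tconv (SD, n = 3). Treg cells were sorted on the GFP that marks Foxp3, so other genes high in Treg alone can give a similar r. The part of residual Foxp3-expressing cells in the low Itgae values of PD1hi and Tconv was not tested.

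Itgav (ENSMUSG00000027087), the alpha chain of the vitronectin receptors, was at 2003, 1648 and 2865 in PD1hi libraries, at 1249, 1455, 1003, 1348 and 1259 in Treg, and at 501, 439, 479, 424 and 612 in Tconv. No library of a population reached into the range of another, and the order was PD1hi, Treg, Tconv. PD1hi exceeded Tconv 4.41-fold (log2 change 2.10 ± 0.20, adjusted p = 1.2e-05) and Treg exceeded Tconv 2.48-fold (log2 change 1.30 ± 0.20, adjusted p = 9.1e-04). The step from Treg to PD1hi was smaller, 1.78-fold (log2 change 0.81 ± 0.20, adjusted p = 0.0159), and without the Treg value of experiment 5 it was 0.67 with adjusted p = 0.0716.

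Itga2 (ENSMUSG00000015533), the collagen-binding chain also called CD49b, was at 7.17, 5.05 and 6.52 in PD1hi libraries, 18 reads in all. Treg libraries had 187, 114, 79.9, 175 and 124, and Tconv libraries 100, 52.5, 89.6, 63.9 and 86.4. PD1hi was thus below every library of the other populations, while Treg and Tconv overlapped. PD1hi was 13.1-fold below Tconv (log2 change -3.51 ± 0.37, adjusted p = 2.4e-05) and 20.3-fold below Treg (-4.09 ± 0.37, adjusted p = 1.0e-05). The fitted size depended on the pseudocount, at -2.49 and -3.03 with 10 in place of 1 added to these low values, and both still passed. Treg against Tconv did not pass (0.58, 95% interval -0.22 to 1.38). CD49b is also carried by NK cells, and a list of 10 genes of NK, CD8 and innate-like T cells, all in the table, summed to 748 to 987 scaled counts in PD1hi, 568 to 741 in Treg and 2864 to 2924 in Tconv. Of 9 tested, 3 passed in PD1hi against Tconv, all lower: the NK receptor genes Klrk1 (-3.00) and Klrb1c (-1.97) and the CD8 chain Cd8b1 (-2.19). In Treg against Tconv 5 passed, all lower: Klrd1 (-4.73), Zbtb16 (-3.96), Klrk1 (-2.88), Klrb1c (-2.85) and Eomes (-2.28). In PD1hi against Treg, Eomes was higher (2.32) and Cd8b1 lower (-1.47). Among all genes tested, 26.1%, 14.4% and 16.5% passed in these 3 comparisons, in the order given. None of the 10 was at 0 in all 3 values of a population. The part of such cells in the Itga2 values was not tested.

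Itga4 (ENSMUSG00000027009), which marks cells able to bind VCAM-1 and MAdCAM-1, was at 12000, 17253 and 13201 in PD1hi libraries, at 8880, 6730, 10987, 13860 and 12073 in Treg, and at 11545, 13552, 11488, 12969 and 13500 in Tconv. The populations overlapped and no comparison passed. The log2 changes were 0.17 for PD1hi against Tconv (95% interval -0.24 to 0.59), 0.43 for PD1hi against Treg (0.02 to 0.85, adjusted p = 0.162) and -0.26 for Treg against Tconv (-0.68 to 0.16).

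Itgal (ENSMUSG00000030830), the alpha chain of LFA-1, was at 26312, 29856 and 24965 in PD1hi libraries, at 15044, 8925, 13445, 16488 and 15019 in Treg, and at 15455, 18053, 14326, 18432 and 17095 in Tconv. All PD1hi libraries lay above the highest of the others, and Treg and Tconv overlapped. PD1hi exceeded Tconv 1.64-fold (log2 change 0.71 ± 0.14, adjusted p = 0.0022) and Treg 1.97-fold (0.98 ± 0.14, adjusted p = 3.3e-04). Treg against Tconv was -0.27 (95% interval -0.57 to 0.03) and did not pass.

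Among the beta chains, Itgb1 (ENSMUSG00000025809), which serves the collagen, fibronectin and VCAM-1 receptors, was at 9619, 10965 and 10264 in PD1hi libraries, at 3234, 4116, 3323, 3285 and 3075 in Treg, and at 5127, 4951, 5114, 3712 and 3866 in Tconv. PD1hi stood clear of both other populations, whose libraries overlapped. PD1hi exceeded Tconv 2.21-fold (log2 change 1.16 ± 0.14, adjusted p = 8.2e-05) and Treg 3.03-fold (1.60 ± 0.14, adjusted p = 9.2e-06). Treg against Tconv was -0.44 ± 0.14 with adjusted p = 0.0589, and adjusted p = 0.0463 with the experiment number as a block. Without the second Treg library of experiment 3, which had the highest Itgb1 of its population, it was -0.51 with adjusted p = 0.0251.

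Itgb2 (ENSMUSG00000000290), the beta chain of LFA-1 and of the myeloid integrins, was at 23070, 25436 and 17490 in PD1hi libraries, at 23346, 13214, 20957, 21857 and 21075 in Treg, and at 23774, 26986, 23206, 25019 and 24452 in Tconv. The libraries of the 3 populations overlapped and no comparison passed, the log2 changes being -0.17 (95% interval -0.50 to 0.15), 0.11 (-0.22 to 0.43) and -0.28 (-0.61 to 0.05) in the order of the comparisons above. The sign of the first turned with quantile normalization (0.10).

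Itgb3 (ENSMUSG00000020689), the partner of Itgav in a receptor for vitronectin and osteopontin, was at 230, 286 and 89.2 in PD1hi libraries, at 729, 556, 668, 849 and 709 in Treg, and at 2716, 2533, 2252, 3523 and 2999 in Tconv. The populations were separate in the order opposite to Itgav. PD1hi was 13.8-fold below Tconv (log2 change -3.93 ± 0.34, adjusted p = 5.9e-06) and 3.46-fold below Treg (-1.94 ± 0.34, adjusted p = 0.0017). Treg was 4.01-fold below Tconv (-1.99 ± 0.34, adjusted p = 0.0017). Platelets are rich in Itgb3, and of a list of 8 platelet genes 4 were in the table, with a sum of 24.6 to 80.5 scaled counts in PD1hi, 29.2 to 75.8 in Treg and 30.7 to 67.1 in Tconv. The 2 that were tested, Itga2b and Gp1ba, passed in no comparison, and none of the 4 was at 0 in all 3 values of a population. The part of platelets in the Itgb3 values was not tested.

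Itgb7 (ENSMUSG00000001281), the partner of Itgae and of Itga4 in the gut-homing receptors, was at 2222, 3975 and 3628 in PD1hi libraries, at 7401, 9425, 11858, 6709 and 7364 in Treg, and at 6562, 8387, 10105, 6094 and 5965 in Tconv. Every PD1hi library lay below the lowest of the others, and Treg overlapped Tconv. PD1hi was 2.22-fold below Tconv (log2 change -1.17 ± 0.25, adjusted p = 0.0042) and 2.78-fold below Treg (-1.48 ± 0.25, adjusted p = 0.0013). Treg against Tconv was 0.31 (95% interval -0.23 to 0.86).

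Itgb8 (ENSMUSG00000025321), the beta chain tied to TGF-beta activation, was at 3099, 3425 and 2894 in PD1hi libraries, at 1601, 1525, 1787, 2377 and 2032 in Treg, and at 113, 57.4, 48.0, 59.2 and 26.5 in Tconv. Tconv was far below both other populations, and every PD1hi library was above every Treg library. PD1hi exceeded Tconv 45.2-fold (log2 change 5.60 ± 0.29, adjusted p = 1.8e-07) and Treg exceeded Tconv 26.6-fold (4.83 ± 0.29, adjusted p = 8.8e-07). PD1hi against Treg was 0.77 ± 0.29 (95% interval 0.13 to 1.41) with adjusted p = 0.102, and adjusted p = 0.0128 where only those 2 populations set the spread. The genes most like Itgb8 over the 9 values were Rgs9, a regulator of G protein signalling (r = 0.992), and Nrp1, a semaphorin and VEGF co-receptor (r = 0.991), with Nrp1 at 2471 ± 351 in Tconv, 16433 ± 1930 in Treg and 20647 ± 2142 in PD1hi (SD, n = 3).

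**Figure D2:**
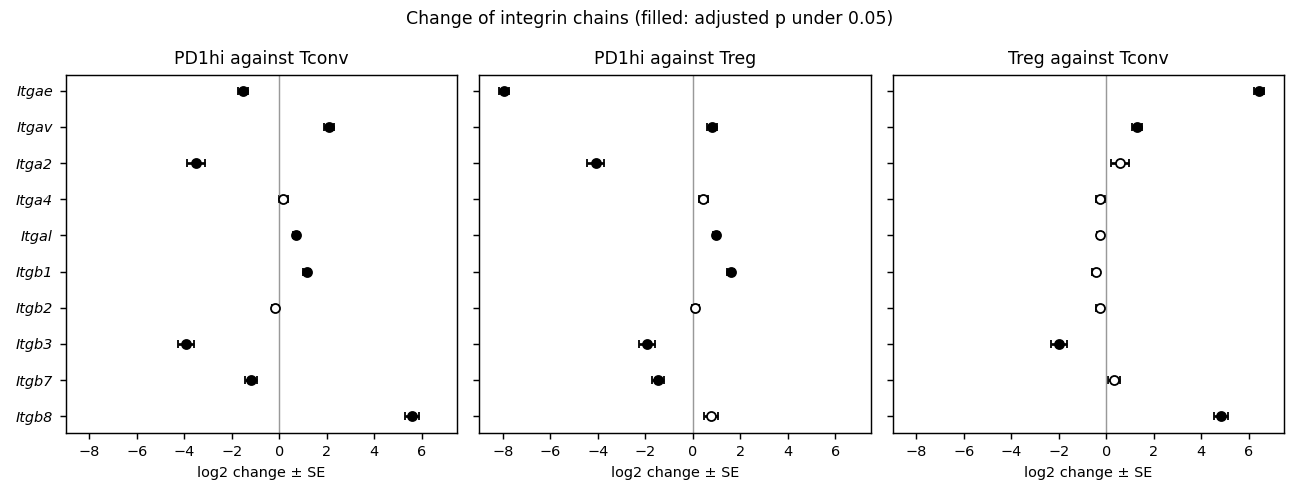
Log2 change ± SE of each chain in the 3 comparisons, with filled symbols where adjusted p is under 0.05. Itgae reaches 6.43 in Treg against Tconv and Itgb8 5.60 in PD1hi against Tconv, while Itga4 and Itgb2 have open symbols in all 3 panels.

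Among the chains themselves, the member most like Itgav was Itgb8 (r = 0.921) and the most opposite was Itgb3 (r = -0.976). Itgb1 and Itgal were alike (r = 0.914), and Itga2 ran opposite to both, with r of -0.955 and -0.948. These are Pearson correlations of log2 levels over the 9 values, which fall into the 3 populations, and are given as a description. The closest genes to Itgav were E130308A19Rik (r = 0.997) and Ankrd12 (r = 0.985), and to Itgb3 Fam69a (r = 0.994) and Rab8a, a small GTPase of vesicle traffic (r = 0.991). Itga2 was closest to Nsmce1 (r = 0.995) and to Foxo1, a transcription factor of resting T cells (r = 0.991), and Itgb7 to Sh3bp5 (r = 0.987) and Ddx51 (r = 0.985). Foxo1 averaged 6211 ± 1056 scaled counts in Treg and 5239 ± 927 in Tconv, against 1954 ± 131 in PD1hi (SD, n = 3). Itgb1 was closest to Lpar3, a lysophosphatidic acid receptor (r = 0.991), and to RP24-386J17.2 (r = 0.995), and Itgal to Alox12, a lipoxygenase (r = 0.989), and Vps45 (r = 0.983). The second closest gene to Itgae was Sec24a, of the vesicle coat COPII (r = 0.992). For Itga4 and Itgb2, which passed in no comparison, the closest genes were Ttll5 (r = 0.954) and Srgap2 (0.933), and Ogdh (0.958) and Tmem156 (0.945).

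Levels of different chains were compared per kilobase of transcript, using the transcript with the longest coding sequence. In Tconv the order of means was Itgb2 (8261 scaled counts per kb), Itgal (3633), Itgb7 (2713), Itga4 (1273), Itgb1 (1219), Itgb3 (482), Itgav (69.9), Itgae (22.2), Itga2 (11.6) and Itgb8 (8.27). In Treg, Itgae moved up to the fourth place at 1889 ± 85.2 per kb (SD, n = 3), behind Itgb2 (6813 ± 576), Itgb7 (3393 ± 926) and Itgal (3028 ± 419). In PD1hi, Itgb1 took the third place at 2695 ± 177 per kb behind Itgb2 (7407 ± 1374) and Itgal (5966 ± 557), and Itgae and Itga2 came last at 7.40 and 0.88 per kb. Neighbours in these orders that differed by less than the larger SD were Itga4 and Itgb1 in Tconv and in Treg, Itga2 and Itgb8 in Tconv, Itgb7 and Itgal in Treg, and Itga4 and Itgb7 as well as Itgb8 and Itgav in PD1hi.

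Of 8 pairs known to form receptors, both chains reached at least 10 scaled counts in all 3 values for 7 pairs in PD1hi and for 8 pairs each in Treg and Tconv. The pair missing in PD1hi was Itga2 with Itgb1, where Itga2 was the absent chain. At a minimum of 50 the counts were 6, 8 and 7, with Itgae and Itgb7 also missing in PD1hi and Itgav and Itgb8 missing in Tconv. Itgae was at 31.3 or less in PD1hi, and the lowest Itgb8 value in Tconv was 42.9. The source of these low values was not tested. At a minimum of 3 the counts were 8 in each population. RNA shows which pairs could form, and not which receptors were on the surface.

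Itgae with Itgb7, Itgal with Itgb2, and Itga2 and Itgav with Itgb1 were the lower chains of their pairs in all 3 populations. Each pair was compared alone, although Itga4, Itgav, Itgb1 and Itgb7 each belong to more than 1 of the pairs. In the Itgae and Itgb7 pair, Itgae was at 7.40 ± 1.10 per kb in PD1hi, 1889 ± 85.2 in Treg and 22.2 ± 6.53 in Tconv (SD, n = 3). Itgb7 was above 1000 per kb in each population. Itgal was below Itgb2 in all 9 values. The log2 ratio of Itgal to Itgb2 per kb was -0.30 ± 0.18 in PD1hi, -1.18 ± 0.10 in Treg and -1.19 ± 0.09 in Tconv (SD, n = 3).

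The lower chain of the Itgav pairs with Itgb3 and with Itgb8 differed between populations. In Tconv, Itgav (69.9 ± 4.30 per kb) lay below Itgb3 (482 ± 75.9) and above Itgb8 (8.27 ± 4.52). In PD1hi, Itgav (308 ± 88.7 per kb) lay above Itgb3 (34.9 ± 17.5) and near Itgb8 (374 ± 31.9), each as mean ± SD over 3 values. In Treg, Itgav was at 173 ± 26.8 per kb, Itgb8 at 220 ± 38.8 and Itgb3 at 120 ± 12.6. Against Itgb1, Itgav was the lower chain in all 9 values. The log2 ratio of Itgav to Itgb8 per kb was -0.31 ± 0.52 in PD1hi, -0.35 ± 0.34 in Treg and 3.21 ± 0.74 in Tconv (SD, n = 3), and with coding length -1.01 in PD1hi and -1.04 in Treg. The lower chain of the Itgav and Itgb8 pair averaged 287 ± 55.5 per kb in PD1hi, 171 ± 24.9 in Treg and 8.27 ± 4.52 in Tconv (SD, n = 3).

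**Figure D3:**
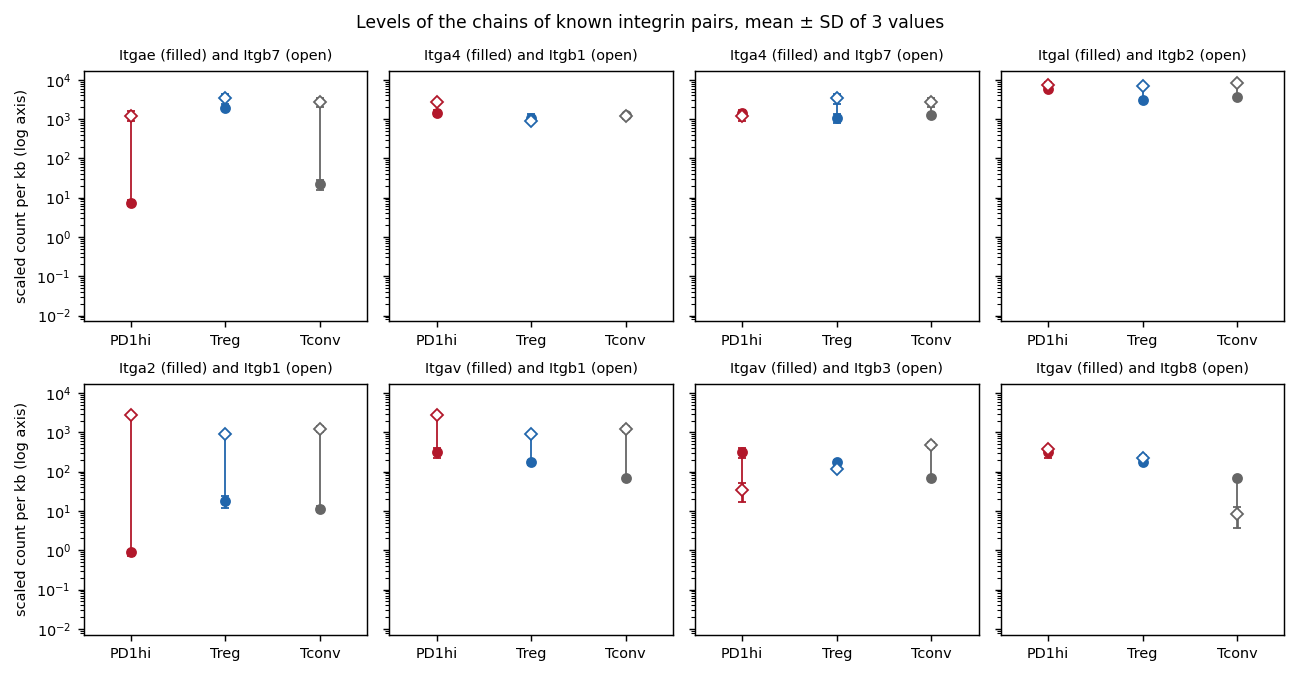
Scaled counts per kb of transcript (log axis) of the alpha chain (filled) and beta chain (open) of 8 known pairs, mean ± SD of 3 values per population. The chains of the Itgav and Itgb8 pair lie closer together in PD1hi and Treg than in Tconv, and Itgae comes near Itgb7 in Treg alone among the 3 populations.

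Ratios between chains were formed to show which partner was more abundant; these 4 ratios were chosen after the levels were seen. Itgb1 over Itgb7, the beta chains of Itga4, was 3.04, 1.94 and 1.99 per kb in PD1hi in experiments 3, 5 and 6. It was 0.31, 0.20 and 0.32 in Treg and 0.55, 0.38 and 0.44 in Tconv. Itgb1 was the more abundant beta chain in every PD1hi value and Itgb7 in every other value.

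Itgb8 over Itgb3, the beta chains of Itgav, was 9.29, 8.25 and 22.4 per kb in PD1hi, 1.67, 1.84 and 1.95 in Treg and 0.029, 0.015 and 0.0090 in Tconv. The geometric means of this ratio differed 758-fold between PD1hi and Tconv and 115-fold between Treg and Tconv. Itgae over Itga4, the alpha chains of Itgb7, had geometric means of 0.0051 in PD1hi, 1.78 in Treg and 0.017 in Tconv per kb. With the coding length in place of the transcript length Itga4 was the more abundant in Treg (log2 ratio -0.69), while the differences between populations do not depend on length. Itgal over Itgb2 had geometric means of 0.81, 0.44 and 0.44 per kb. Over 12 comparisons of ratios, the Treg and Tconv values of Itgal over Itgb2 gave p = 0.7 and every other comparison p = 0.1, adjusted p = 0.109, in 2-sided exact permutation tests; 0.1 is the smallest p that 3 against 3 values allow.

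**Figure D4:**
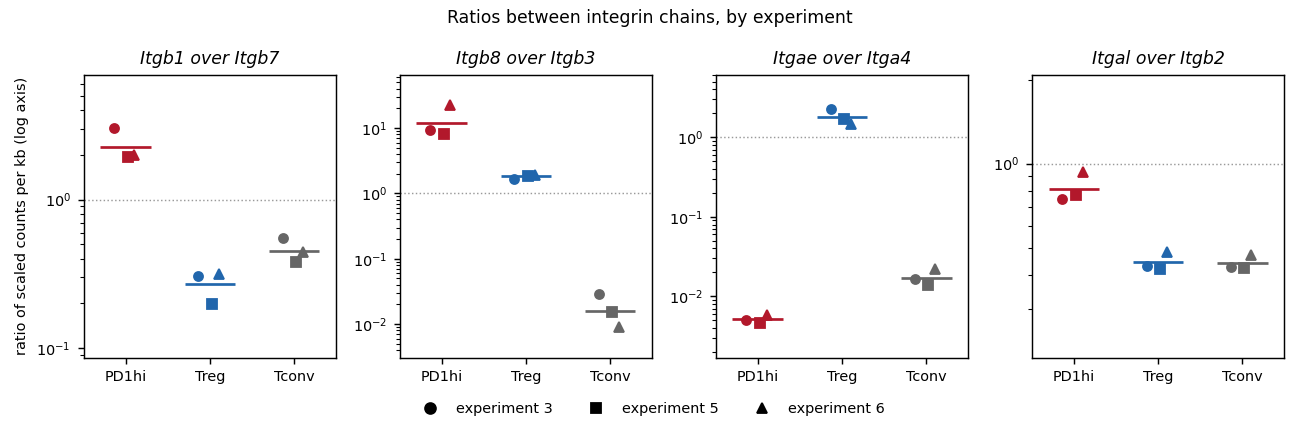
Ratios of scaled counts per kb between 4 sets of chains on log axes, 1 symbol per experiment and a bar at the geometric mean, with a dotted line at equal levels. Itgb1 over Itgb7 is above 1 in the 3 PD1hi values and below 1 in the other 6, and Itgb8 over Itgb3 is above 1 in PD1hi and Treg and below 1 in Tconv.

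Of 16 other integrin chains, 14 were in the table and 12 were tested. Against Tconv, PD1hi cells had 3 higher and 4 lower (26.1% of all genes passed), against Treg 3 higher and 3 lower (16.5%), and Treg against Tconv 1 higher and 2 lower (14.4%). Higher in PD1hi than Tconv were Itgb5 (log2 change 4.01), another partner of Itgav with 7.17, 49.5 and 68.5 scaled counts in PD1hi, Itga3 (1.54) and the laminin-binding chain Itga7 (1.25). Lower were Itgam (-3.15), the alpha chain of the myeloid integrin Mac-1, the collagen-binding chain Itga1 (-2.90), the fibronectin-binding chain Itga5 (-2.62) and the laminin-binding chain Itga6 (-1.11). Itga9, which binds matrix proteins and VCAM-1 with Itgb1, was higher in PD1hi than Treg (adjusted p = 0.0048), at 81.0, 63.7 and 58.7 against 10.8, 0 and 8.85. Itga6 was highest in Treg, at 3976, 3085 and 3223, against 792, 802 and 912 in PD1hi and 1938, 1622 and 1865 in Tconv. Itga1 and Itga2, both collagen-binding, were thus both below Tconv in PD1hi, but Itga1 was lower in Treg than in Tconv (-2.23, adjusted p = 0.0043) where Itga2 did not pass. The median log2 change of the 12 was -0.05, 0.98 and -0.85 in the 3 comparisons.

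Of 12 myeloid and dendritic markers, Itgam among them, 11 were in the table, and none was at 0 in all 3 values of a population. Their levels, with Itgam included, summed to 452 to 656 in PD1hi, 321 to 987 in Treg and 397 to 769 in Tconv. The highest sum in each population was that of experiment 3. In PD1hi against Tconv 1 of the 9 tested was higher (Cd68) and 1 lower (Itgam itself), where 26.1% of all genes passed. The sum of 8 B cell genes was 1679 to 2315 in PD1hi, 910 to 1136 in Treg and 234 to 415 in Tconv, with none at 0 in all 3 values. Of the 5 B cell genes tested, 2 were higher and none lower in PD1hi than Tconv, where 26.1% of all genes passed. The 2 were Cd22 (3.26) and the B cell receptor subunit Cd79b (1.10). Cd22 made up most of the PD1hi sum, at 1949, 1488 and 1588. Cd79b was highest in Treg, at 706, 642 and 540, against 146, 84.9 and 159 in PD1hi and 60.7, 58.3 and 54.5 in Tconv, so that it was higher in Treg than Tconv (3.41) and lower in PD1hi than Treg (-2.31). The part of myeloid or B cells in the integrin values was not tested. Erythroid genes summed to 61.5 to 77.2 in PD1hi, 52.7 to 117 in Treg and 37.8 to 46.9 in Tconv.

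Of 32 listed genes of integrin activation and adhesion signalling, 29 were tested. In PD1hi against Tconv 3 were higher and 6 lower (26.1% of all genes passed), against Treg 3 and 4 (16.5%), and in Treg against Tconv 0 and 3 (14.4%), with median log2 changes of -0.21, -0.01 and -0.08. The talin gene Tln1 and the kindlin gene Fermt3, whose products bind beta chain tails, passed in no comparison. Lower in PD1hi than Tconv were Actn1, which links integrins to actin (-3.23), Rasgrp2, the exchange factor that switches on Rap1 (-2.83), Cytip, an inhibitor of cytohesin (-1.59), Flna, which binds actin and beta chains (-0.76), and the kinase Stk4 (-0.62), followed by the Rap1 effector Apbb1ip (-0.60). Rasgrp2 stood at 288, 545 and 511 in PD1hi, 819, 955 and 961 in Treg and 2574, 3650 and 3067 in Tconv, with no overlap. Higher were the GTPase Rap1a (0.97), the adaptor Lims1 (0.58) and the kinase Ptk2b (0.41). Rapgef1, an exchange factor for Rap1, was higher in PD1hi than Treg (0.70), only just past the threshold (adjusted p = 0.04995 by limma). It was at 2241, 2114 and 4091 in PD1hi, with the highest value in experiment 6, and at 1905, 1448 and 1630 in Treg.

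Of 21 integrin ligands and carriers of latent TGF-beta, 19 were in the table and 11 were tested. In PD1hi against Tconv 5 were higher and 2 lower (26.1% of all genes passed), against Treg 3 and 2 (16.5%), and in Treg against Tconv 3 and 5 (14.4%), with median log2 changes of 0.92, 0.38 and 0.54. Spp1, which encodes osteopontin, a ligand of Itgav and Itga4 integrins, was at 3979, 4215 and 4514 in PD1hi, 6.77, 0 and 4.10 in Treg and 40.5, 34.1 and 32.8 in Tconv. It was separate in all 3 populations, and PD1hi against Tconv was 6.85 (adjusted p = 5.3e-06). Thbs1, a matrix protein that binds integrins and TGF-beta complexes, was at 59.4, 63.7 and 41.3 in PD1hi and at most 3.49 in Tconv (log2 change 4.86). Col1a1 (2.31), Vcam1 (1.92) and Tgfb3 (1.50) were also higher in PD1hi than Tconv, and the E-cadherin gene Cdh1 (-3.79) and Icam2 (-0.88) were lower. Cdh1 was low, at 1.025, 18.2 and 0 in PD1hi against 38.4, 47.7 and 53.05 in Tconv, with a standard error of 1.08. Col1a1 was at 28.7, 22.2 and 19.6 against 2.13, 5.14 and 5.10, and Vcam1 at 131, 76.8 and 80.5 against 74.6, 13.9 and 12.6.

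Lrrc32, which holds latent TGF-beta on the cell surface, was at 5260, 6132 and 5670 in Treg, at 10.3, 15.2 and 10.9 in PD1hi and at 5.33, 4.27 and 11.6 in Tconv. PD1hi did not differ past the test from Tconv in Lrrc32 (0.79, adjusted p = 0.12). Tgfb3 was at 611, 517 and 500 in PD1hi, 28.9, 34.8 and 65.1 in Treg and 161, 223 and 194 in Tconv, with no overlap. Tgfb1 passed in no comparison and lay between 13.9 and 78.3 in all values. Icam1, a ligand of LFA-1, was higher in Treg than Tconv (1.04, adjusted p = 0.0013), at 3183, 3580 and 3218 against 1601, 1863 and 1411, and lower in PD1hi than Treg (-0.84, adjusted p = 0.0043). Mfge8, a secreted ligand of Itgav integrins, was lower in Treg than Tconv (-1.29).

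**Figure D5:**
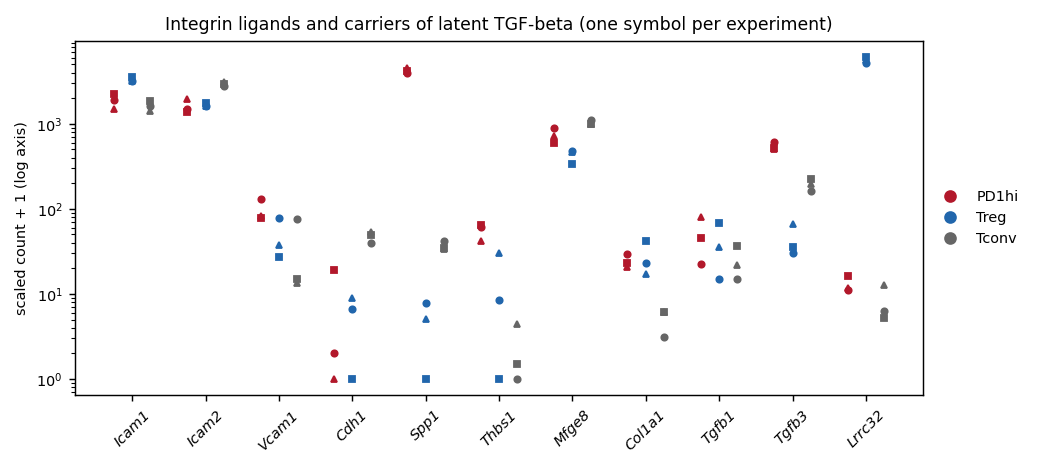
Scaled count + 1 (log axis) of the 11 tested ligands and carriers of latent TGF-beta, 1 symbol per experiment and population. Spp1 is at 3979 or more in PD1hi and at 40.5 or less elsewhere, and Lrrc32 is at 5260 or more in Treg and at 15.2 or less elsewhere.

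All 13 listed membrane partners of integrins were tested, and 3 were higher and 3 lower in PD1hi against Tconv (26.1% of all genes passed), 3 and 3 against Treg (16.5%), and 2 and 3 in Treg against Tconv (14.4%), with median log2 changes of 0.16, -0.17 and 0.14. The tetraspanin genes Cd82 (1.82) and Cd81 (1.65) and the hyaluronan receptor Cd44 (1.35) were higher in PD1hi than Tconv. Cd81 was at 3644, 2985 and 2934 in PD1hi, 4615, 4318 and 4084 in Treg and 1098, 1175 and 806 in Tconv, so that its 2 high populations were those with high Itgb8. Plaur, the urokinase receptor (-4.58), Cd226, an adhesion receptor that associates with LFA-1 (-1.84), and Cd47, the integrin-associated protein (-1.40), were lower. Cd47 was at 2373, 3113 and 2203 in PD1hi, below all Treg values (5165 to 6541) and all Tconv values (6397 to 6989). The tetraspanin gene Cd9 was lowest in Treg, with log2 changes of -0.95 for Treg against Tconv and 1.34 for PD1hi against Treg.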

How the data were processed

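RNA of 13 libraries from sorted mouse splenic CD4 T cells was extracted with Trizol, depleted of ribosomal RNA and sequenced with an Ion Torrent kit, per the labels' protocols. The authors deposited 1 table of signal values, read counts divided by size factors with 1 added, which was subtracted again; afterwards every value was a whole number of reads within 0.001 in units of its library's step. The submitters' processing notes name Picard, HTSeq 0.5.4 and limma and the builds mm9, hg19 and GRCh37 without their role; the aligner and the strand setting were not stated there. Log2(scaled count + 1) of all 9 values was fitted in R 4.3.3 by limma 3.58.1, using its trend option, with a minimum mean of 10 (14177 of 18649 genes). Libraries held 15971126 to 24216463 reads in genes, which leaves counting error large only for chains with few reads.

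The experiment number in the titles is shared by the populations, and the labels do not say whether it pairs them. Correlations of deviations between populations ranged from -0.070 to 0.298 within an experiment and from -0.274 to 0.125 between experiments. Between Treg and Tconv the correlations were 0.243, 0.218 and 0.298 within experiments 3, 5 and 6, and -0.141 to -0.103 between experiments. For PD1hi with either of the others the ranges were -0.070 to 0.197 and -0.274 to 0.125. The main fit used population only, and the experiment number was a block in 1 of the alternatives. The 10 chains, all lists and tests were chosen with earlier results of these data known. Every chain is reported. From each list the genes with the largest changes past the test, up to 5 per direction, are named, with direct ligands, carriers or partners, and for each chain the genes most alike over 9 values. Transcript lengths came from GENCODE M21 on GRCm38 by gene identifier (17488 of 18649 matched). Results were recomputed under 20 alternatives. No count model was run on the recovered reads.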

Additional observations from a re-analysis of the deposited data

Results flagged for a closer look

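Among 20 groups of 5 libraries (10 chains in Treg and Tconv), 2 held a library far from the others, where chance gives about 1 in 20, and both were the second Treg library of experiment 3. For Itgb1 it was at 4116 scaled counts, with the other 4 Treg libraries between 3075 and 3323. For Itgb2 it was at 13214, with the others between 20957 and 23346. The same library was the lowest of Treg for Itgae (4383), Itga4 (6730), Itgal (8925), Itgb3 (556) and Itgb8 (1525), and the highest for Itgav (1455). These values were not far from the others by the rule used. The groups share their libraries, so the 2 cases are not independent. Without this library, Itgb1 in Treg against Tconv had adjusted p = 0.0251 in place of 0.0589 by limma. Itgb2 in PD1hi against Treg was then -0.01 in place of 0.11 and passed the test with neither value.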

How the results depend on the processing

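The 30 log2 changes of the chains were recomputed under 20 alternatives with limma, and of 600 values 588 kept their direction and their side of the threshold, 1 lost and 8 gained the call, and 3 changed sign. Of the 19 changes that passed, 18 did so under every alternative. The exception was Itgav in PD1hi against Treg, at 0.67 (adjusted p = 0.0716) without the Treg value of experiment 5. The gains were Itgb1 in Treg against Tconv, with adjusted p from 0.0229 to 0.0463, and Itgb8 in PD1hi against Treg (adjusted p = 0.0128 with only the 2 populations and 0.0127 leaving out Tconv experiment 3). The chains lower in Treg than Tconv were accordingly 2 in place of 1 with the replicate block of the experiment number, with 13 libraries and duplicateCorrelation, with only the 2 populations and without the second Treg library of experiment 3, and ranged from 1 to 2 when each value was left out. The block changed no other call. Itgb2, which passed in no comparison, changed sign in PD1hi against Tconv with quantile normalization (0.10) and in PD1hi against Treg without the second Treg library of experiment 3 (-0.011) and without PD1hi experiment 5 (-0.0069, leave-one-out range -0.0069 to 0.26).

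Levels between chains depended on the length used. With coding length the log2 ratio of alpha to beta chain became 0.074 for Itga4 and Itgb1 in PD1hi and 0.44 for Itga4 and Itgb7 in Tconv, that of Itgav and Itgb8 -1.01 in PD1hi and -1.04 in Treg, and that of Itgae to Itga4 in Treg -0.69. With merged exon length, added after seeing the data, Itga4 over Itgb1 became -0.16 in Treg and -0.35 in Tconv, Itga4 over Itgb7 -0.20 in PD1hi and Itgav over Itgb3 -0.063 in Treg. Leaving out an experiment moved Itga4 over Itgb1 in Tconv between -0.11 and 0.20. Among all genes, those lower in Treg than Tconv numbered 802, and 526 without Treg experiment 5, 494 without Tconv experiment 3 and 518 without Tconv experiment 6. Equal library totals moved the median change of all genes to 0.14 in PD1hi against Tconv, with 65.4% of called genes higher in place of 54.4%; no call of a chain changed. A pseudocount of 10 moved Itga2 to -2.49 in PD1hi against Tconv and -3.03 against Treg. Depth limited Itga2 (18 reads) and Itgae (82 reads) in PD1hi.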
